A study of Mus musculus with 8 samples.

Results

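The genes described here are 31 genes of myelin, of the Schwann cells that make it in peripheral nerve, and of the node of Ranvier and its flanks. They were listed by symbol for their known roles, with earlier results of these data known, and no difference between the groups entered the rule. Of the 31, 30 had an array feature linked to exactly 1 symbol, out of 23521 such features covering 22180 genes. The remaining gene, Prx, was not analysed here. Cers2 alone had a second such feature, and its brighter feature on average was used. The platform annotation and the RefSeq gene table gave the same symbol for all 30 genes.

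The cochlea of 4 mice carrying the miR-183/96 KO genotype was compared with that of 4 control mice, all at postnatal day 16. The series text calls the controls wild type. Both cochleae of an animal, each whole and in its bony capsule, were pooled, so each of the 8 arrays stands for 1 animal. No source used here gives the strain, the sex or the way the deletion was made. Values are log2 expression levels from RMA, which corrects background, equalises the distribution of probe values across arrays and summarises the probes of each feature. The summarised levels still differed between arrays, with medians from 5.10 in control 4 to 5.28 in knockout 3. A difference of 1 on the log2 scale is a doubling, and all differences are knockout minus control. Because probes differ in brightness, a level ranks a feature's signal on the array, not the abundance of its transcript against that of another gene.

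The axons of spiral ganglion neurons, which carry signals from hair cells to the brain, are wrapped by Schwann cells in the periphery and by oligodendrocytes near the brainstem. Myelin consists of compacted membrane rich in cholesterol and galactolipids, held together by a small set of proteins. Current crosses the axon membrane at the nodes between myelin segments, where adhesion molecules and scaffolds hold sodium channels in place. In the cochlea this wrapping is completed in the weeks around the onset of hearing. In bulk tissue, fewer cells of a type and less RNA per cell cannot be told apart.

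The 2 microRNAs named in the genotype are shown because their absence defines the groups. Both are encoded on the minus strand of chromosome 6, and the sequences and GRCm38.p6 positions come from RefSeq. The seed, bases 2 to 8 from the 5′ end, is in capitals. The 7-base seeds differ at 1 position, given as U2A for the base in miR-96-5p, its position and the base in miR-183-5p.
mmu-miR-96-5p at chr6:30169506-30169528: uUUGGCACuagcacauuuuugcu
mmu-miR-183-5p at chr6:30169711-30169732: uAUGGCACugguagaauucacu

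The Mir96 feature read 5.71, 5.26, 6.23 and 5.57 in control animals 1 to 4 and 4.01, 4.26, 4.26 and 4.31 in knockout animals 1 to 4. It fell by 1.48 on the log2 scale (SE 0.17; limma adjusted p = 0.00932), so no array went against its label. It no longer passed when control replicate 1 was left out (limma adjusted p = 0.0677). The Mir183 feature, at the 3.5th percentile of all features by level, differed by -0.33 (limma adjusted p = 0.398).

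None of the 30 genes passed. The test was limma with adjustment over all 23521 features at a threshold of 0.05, which 3 features (0.0128%) passed, and the smallest adjusted p among the 30 genes was 0.291, for Mal. Leaving out control replicate 3 let 21 features pass, and leaving out control replicate 1 let 1 pass, with 0 of the 30 genes among them in either case. At an unadjusted p under 0.05 there were 4 of the 30 genes (13.3%), against 14.3% of all features. Of these 4, Mal, Ugt8a and S100b read lower in knockout cochlea and Ncmap read higher, whereas 7.25% of all features were lower and 7.04% higher at that p. After repeated quantile normalization 5 of the 30 genes were at that p, against 10.3% of all features in either direction. Cyclic loess also gave 5 of the 30, against 10.1%, and in both cases all 5 read lower. Median-centring gave 9 of the 30, all lower, against 14.9% of all features in either direction, but it moves every difference by the same -0.083. Groups did not overlap for Mal, Ugt8a and Cers2, 3 of 30 genes (10%), all lower in knockout cochlea, against 5.96% of all features in either direction and 2.65% lower. Only 1 gene had separate groups after repeated quantile normalization (4.81% of all features) or after cyclic loess (4.88%), and 6 had after median-centring (5.45%). Leaving out an array eases that criterion for all features. It held for 7 of the 30 genes without knockout replicate 1 (9.66% of all features) and for 6 without control replicate 3 (18.8%). For 5 genes it held without control replicate 4 (7.46%). The count was 4 without knockout replicate 4 (8.29%), control replicate 1 (9.09%) or control replicate 2 (7.61%). It was 3 without knockout replicate 2 (15.9%) or knockout replicate 3 (8.55%).

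Mal encodes a proteolipid of compact myelin that takes part in sorting membrane to the myelin sheath. Its level was 6.97, 6.90, 6.515 and 6.96 in control animals 1 to 4 and 6.45, 5.88, 6.31 and 6.43 in knockout animals 1 to 4. The groups were separate, with control 3 and knockout 1 closest and knockout 2 lowest. The group levels were 6.83 ± 0.22 in control and 6.26 ± 0.27 in knockout cochlea (SD, n = 4), a difference of -0.57 (SE 0.15), or 1.49-fold lower. Its unadjusted limma p was 0.00172 and the adjusted p 0.291. The difference ranged from -0.68 to -0.44 when each array was left out in turn, with the smaller value without knockout replicate 2. Without control replicate 3 the limma adjusted p was 0.0710, the lowest for Mal under any alternative.

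Ugt8a encodes the enzyme that makes galactosylceramide, a main lipid of myelin. Control animals 1 to 4 read 7.85, 7.58, 7.18 and 7.48, and knockout animals 1 to 4 read 7.10, 6.95, 7.17 and 7.10. The groups were separate by a narrow margin between control 3 and knockout 3. The level went from 7.52 ± 0.28 to 7.08 ± 0.09 (SD, n = 4), a difference of -0.44 (SE 0.13; limma adjusted p = 0.299). After cyclic loess, which reduces differences that depend on signal level, it was -0.29, and it was -0.32 with the signal range of each array as a covariate. Control 3 was the lowest of the control arrays for both Mal and Ugt8a.

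The 250 bases before the start sites of Mal and Ugt8a are shown because these were the genes that both reached an unadjusted p under 0.05 and had separate groups. Sequences are from RefSeq on GRCm38.p6, 5′ to 3′ on the strand of the gene, which is minus for both. Capitals mark the GC box GGGCGG, searched on both strands.
Mal at chr2:127656696-127656945: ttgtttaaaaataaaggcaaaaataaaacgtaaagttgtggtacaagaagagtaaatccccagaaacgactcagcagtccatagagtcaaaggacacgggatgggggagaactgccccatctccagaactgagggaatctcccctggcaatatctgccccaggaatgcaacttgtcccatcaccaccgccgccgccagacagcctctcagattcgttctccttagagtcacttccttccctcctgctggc
Ugt8a at chr3:125938653-125938902: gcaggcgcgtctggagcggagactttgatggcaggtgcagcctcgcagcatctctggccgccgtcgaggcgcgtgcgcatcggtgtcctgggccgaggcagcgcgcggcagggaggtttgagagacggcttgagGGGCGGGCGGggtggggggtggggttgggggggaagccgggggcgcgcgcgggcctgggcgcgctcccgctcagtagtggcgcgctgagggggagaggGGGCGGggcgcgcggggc

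These windows differed in composition, with 50% G and C for Mal and 76.8% for Ugt8a. The Ugt8a window held 3 GC boxes, of which 2 overlap, and the Mal window held 0. Promoter windows were matched for 21 of the 30 genes, and at least 1 GC box lay in a window of 12 of them (57.1%), against 35.4% of 27025 genes. These genes had more windows each, and counted per window the share was 17 of 42 (40.5%) against 32.7% of all 32851 windows. The words ACAAAG and ACAATG, which match the core bound by SOX factors such as Sox10, were searched on both strands and were not in the Mal or Ugt8a window. They lay in a window of 6 of the 21 genes (28.6%), against 28.2% of all genes.

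**Figure D1:**
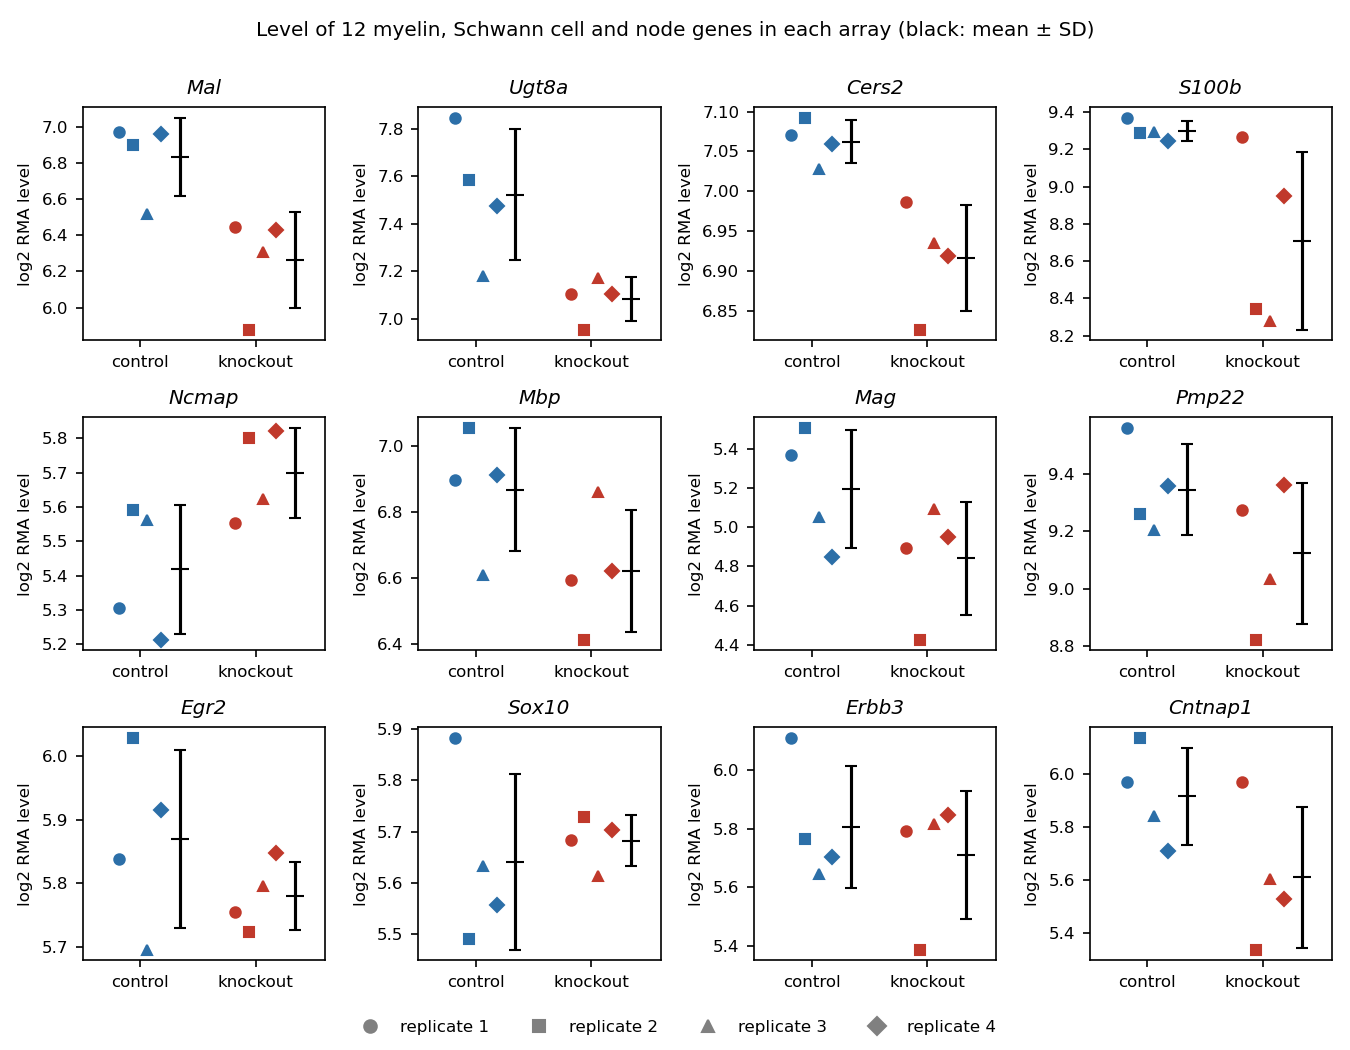
Log2 RMA level (vertical axes, each with its own range) of 12 genes in the 4 control and 4 knockout animals, with the replicate number as symbol and the mean ± SD in black. The groups are separate for Mal, Ugt8a and Cers2, and knockout 2 is the lowest of all 8 arrays in most panels, for example at 5.88 for Mal and 4.43 for Mag.

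Among the genes grouped as compact myelin proteins, a label that is loose for Mog and Ncmap, 6 of 7 had a negative difference. Their median was -0.22, and 0 passed. Mbp, which encodes the protein that binds the inner membrane faces together, read 6.90, 7.06, 6.61 and 6.91 in control and 6.59, 6.41, 6.86 and 6.62 in knockout animals. Its groups overlapped, since knockout 3 and 4 lay within the control range and control 3 near the middle of the knockout values. The difference was -0.25 (SE 0.13; limma adjusted p = 0.385) and ranged from -0.33 without control replicate 3 to -0.18 without knockout replicate 2.

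Pmp22, a peripheral myelin protein whose gene dosage matters in inherited neuropathy, read 9.56, 9.26, 9.20 and 9.36 in control and 9.27, 8.82, 9.03 and 9.36 in knockout animals. Its difference of -0.22 (SE 0.13) was -0.12 without knockout replicate 2, the lowest array. Pllp, which encodes plasmolipin, a proteolipid of the same family as Mal, differed by -0.23 (SE 0.12; limma adjusted p = 0.387). Mobp and Mog, which encode myelin proteins typical of oligodendrocytes, differed by -0.071 and -0.065. Without knockout replicate 2 these were 0.058 and 0.12, and the sign of Mobp also turned without knockout replicate 4 and without control replicate 1.

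Ncmap, grouped with these genes although its protein is named for noncompact myelin of peripheral nerve, was the only gene of the 30 at an unadjusted p under 0.05 that read higher in knockout cochlea. It read 5.31, 5.59, 5.56 and 5.21 in control and 5.55, 5.80, 5.62 and 5.82 in knockout animals. Control 2 and 3 lay just inside the low end of the knockout range, and control 1 and 4 below it. The level was 5.42 ± 0.19 in control and 5.70 ± 0.13 in knockout cochlea (SD, n = 4). The difference was 0.28 (SE 0.12), with a limma p of 0.0401 before and 0.335 after adjustment. The sign was positive under all 19 alternatives, and the gene stayed under the unadjusted limit in 11 of them. After cyclic loess the difference was 0.23, with an unadjusted limma p of 0.0730.

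Among the genes grouped as proteins outside compact myelin, all 4 that were measured had a negative difference, with a median of -0.28. S100b, which encodes a calcium-binding protein of Schwann cells and other glia, read 9.37, 9.29, 9.29 and 9.25 in control and 9.27, 8.35, 8.28 and 8.95 in knockout animals. The control arrays lay close together, whereas knockout 2 and 3 were far below them and knockout 1 was inside the control range. The level went from 9.30 ± 0.05 to 8.71 ± 0.48 (SD, n = 4), a difference of -0.59 (SE 0.18; limma adjusted p = 0.301), or 1.5-fold lower. Leaving out knockout replicate 3 gave -0.45, and leaving out knockout replicate 1 gave -0.77.

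Mag encodes an adhesion protein of the myelin membrane next to the axon. It read 5.37, 5.51, 5.05 and 4.85 in control and 4.90, 4.43, 5.10 and 4.95 in knockout animals, so the groups overlapped and only knockout 2 lay below all controls. The difference of -0.35 (SE 0.17; limma adjusted p = 0.364) became -0.22 without knockout replicate 2 and -0.46 after cyclic loess. Drp2, which encodes part of the dystroglycan complex on the outer surface of the Schwann cell, differed by -0.21 (SE 0.14), and by -0.11 without knockout replicate 2. Cnp, which encodes an enzyme of the cytoplasm-filled channels of myelin, differed by -0.17 (SE 0.11).

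The other lipid genes gave smaller differences than Ugt8a. Cers2 encodes the synthase of the very long chain ceramides used in myelin lipids. It read 7.07, 7.09, 7.03 and 7.06 in control and 6.99, 6.83, 6.94 and 6.92 in knockout animals. The groups were separate because the controls varied little, but the difference was only -0.15 (SE 0.095; limma adjusted p = 0.464), it was -0.018 after cyclic loess, and the second feature of Cers2 differed by 0.036. Fa2h, whose product adds the hydroxyl group to the fatty acids of myelin galactolipids, differed by -0.23 (SE 0.18), and by -0.089 without knockout replicate 2. Gal3st1, which encodes the sulfotransferase that turns galactosylceramide into sulfatide, differed by 0.071 (SE 0.12) and by 0.0099 after cyclic loess.

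The transcription factors of the lineage had the smallest group median, 0.041 over 3 genes, and it was -0.068 after cyclic loess. Egr2, the factor that drives the myelin genes in Schwann cells, read 5.84, 6.03, 5.70 and 5.91 in control and 5.75, 5.72, 5.80 and 5.85 in knockout animals. All knockout values lay inside the control range, and the difference was -0.089 (SE 0.11; limma adjusted p = 0.70). Sox10, needed for the lineage at every stage and also expressed in melanocytes, differed by 0.041 (SE 0.11), and Pou3f1, a factor of promyelinating cells, by 0.043 (SE 0.15). After repeated quantile normalization Sox10 differed by -0.0064 and Pou3f1 by -0.057.

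The signalling and trafficking genes had 4 negative differences of 4, with a median of -0.070. Mtmr2 encodes a phosphoinositide phosphatase of endosomes that is mutated in a demyelinating neuropathy. It read 6.58, 6.92, 6.74 and 6.65 in control and 6.68, 6.53, 6.19 and 6.49 in knockout animals, with knockout 1 inside the control range. Its difference of -0.25 (SE 0.13; limma adjusted p = 0.371) was -0.16 without knockout replicate 3. Erbb3, the receptor through which axonal neuregulin acts on Schwann cells, differed by -0.096 (SE 0.14). Its sign turned without knockout replicate 2 (0.011) and without control replicate 1. Dhh, the hedgehog ligand that Schwann cells secrete, and Sh3tc2, an endosomal recycling protein, differed by -0.043 and -0.026, with signs that also depended on single arrays.

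At the node and paranode, 6 of 8 genes had a negative difference, with a median of -0.092. Cntnap1, the axonal protein of the paranodal junction, read 5.97, 6.14, 5.84 and 5.71 in control and 5.97, 5.34, 5.61 and 5.53 in knockout animals. Knockout 2, 3 and 4 lay below all controls and knockout 1 lay inside the control range. The difference was -0.30 (SE 0.14; limma adjusted p = 0.356), and it shrank to -0.21 when knockout replicate 2 was left out and grew to -0.43 when knockout replicate 1 was. Its partner at the paranode, Cntn1, differed by -0.14 (SE 0.11). Gldn, the Schwann cell ligand that gathers node proteins, differed by -0.12, and by -0.038 without control replicate 1 and -0.19 without knockout replicate 1.

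The scaffold gene Ank3, which encodes ankyrin G, differed by -0.11, and by -0.049 without control replicate 1. The adhesion genes Nrcam and Nfasc differed by -0.074 and -0.054. Nfasc turned to 0.051 without knockout replicate 2, and Nrcam to 0.0051 without control replicate 2. Positive differences were those of Cntn2, an adhesion protein next to the paranode, at 0.077, and Sptbn4, the beta-IV spectrin of nodes, at 0.13. After cyclic loess Cntn2 was at 0.047 and Sptbn4 at -0.0078.

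**Figure D2:**
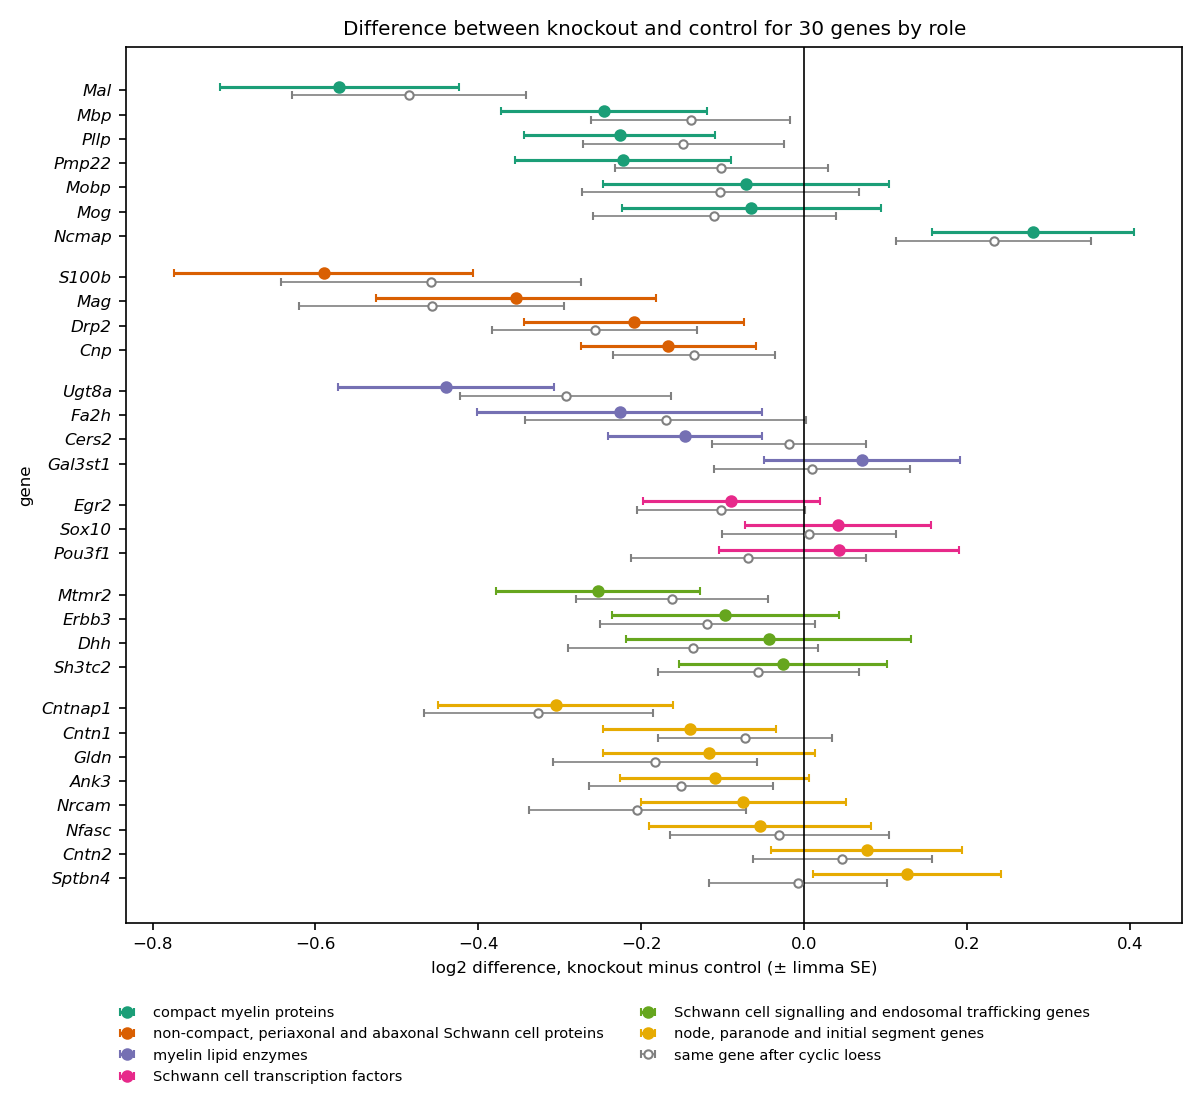
Log2 difference, knockout minus control, of the 30 genes with limma's SE, in colour by role, and the same after cyclic loess in open grey symbols. Mal, S100b and Ugt8a lie farthest to the left (-0.57, -0.59 and -0.44), Ncmap farthest to the right (0.28), and the 3 transcription factors near 0.

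Over the 30 genes, 24 had a negative difference (80.0%), against 47.6% of all features, and the median was -0.11 against 0.014. The count was 26 after cyclic loess, against 57.3% of all features. Without knockout replicate 2 it was 19 of 30, and the median was -0.089. The direction was linked to signal level across the whole array: of the 7247 features with a mean level of at least 6, 79.3% had a negative difference, with a median of -0.16, against 33.5% of the 16274 dimmer features, with a median of 0.076. Of the 30 genes, 12 had a level of at least 6. All 12 read lower, with a median of -0.23, against 12 of the 18 dimmer genes, with a median of -0.068. Tested features were then divided by mean level into 10 equal classes, a step added once the data had been seen. With the median of its own class subtracted from each gene's difference, the median of the 30 genes was -0.078. By that measure Mag was at -0.44, Mal at -0.41, S100b at -0.38, Cntnap1 at -0.27 and Ugt8a at -0.23, whereas Pmp22 was at -0.015 and Cers2 at 0.061. After cyclic loess the class medians still went from 0.018 in the dimmest class to -0.065 in the brightest. The spread of log2 values within an array, its signal range, was 1.40 ± 0.030 in knockout and 1.49 ± 0.064 in control arrays (SD, n = 4). Its part in these differences was not tested beyond the values given here.

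**Figure D3:**
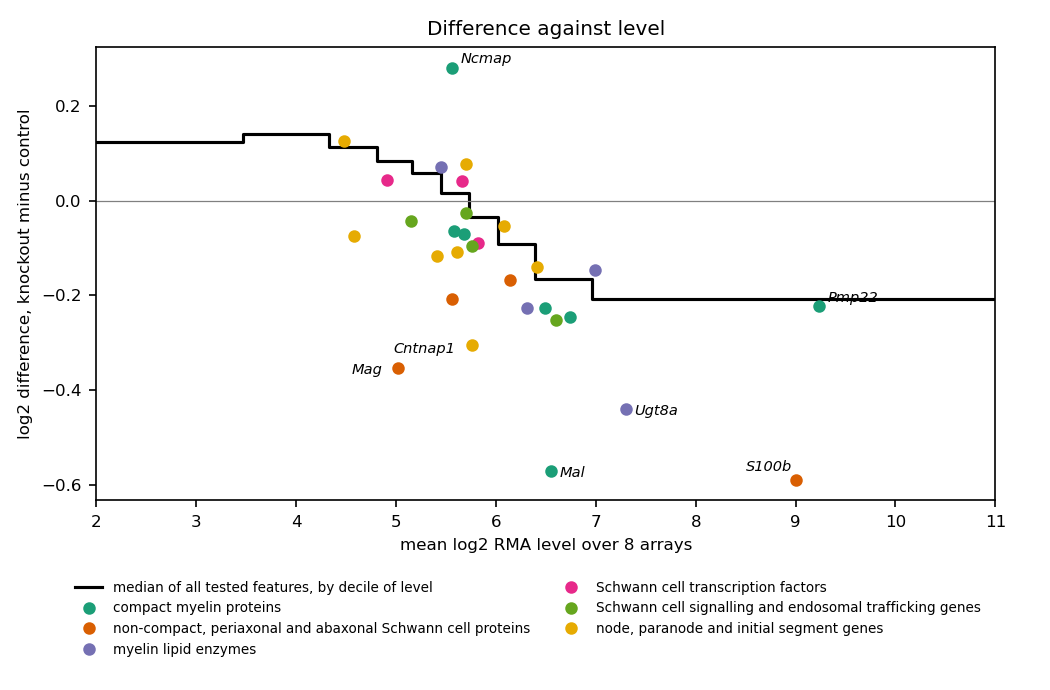
Log2 difference of the 30 genes (points, coloured by role) against their mean log2 level over 8 arrays, with the median difference of all tested features in each of 10 equal classes of level as a black line. The line goes from 0.13 in the dimmest class to -0.21 in the brightest, Pmp22 lies on it, and Mal, S100b, Mag and Cntnap1 lie below it.

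The genes did not vary independently of each other between animals. Knockout 2 was the lowest of the 8 arrays for 15 of the 30 genes (50%), among them Mal, Mbp, Pmp22, Mag, Ugt8a, Fa2h, Mog, Erbb3 and Cntnap1, whereas it was lowest for 12.1% of all features. Control 1 was the highest array for 11 of the 30 genes and control 2 for 10, against 8.76% and 12.6% of all features. The lowest of the knockout arrays for both S100b and Mtmr2 was knockout 3. The mean level of the 30 genes was 6.21, 6.15, 6.05 and 6.04 in control animals 1 to 4 and 6.05, 5.80, 5.99 and 6.04 in knockout animals 1 to 4. Knockout 1 and 4 lay level with control 3 and 4, knockout 3 slightly below them and knockout 2 lowest.

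**Figure D4:**
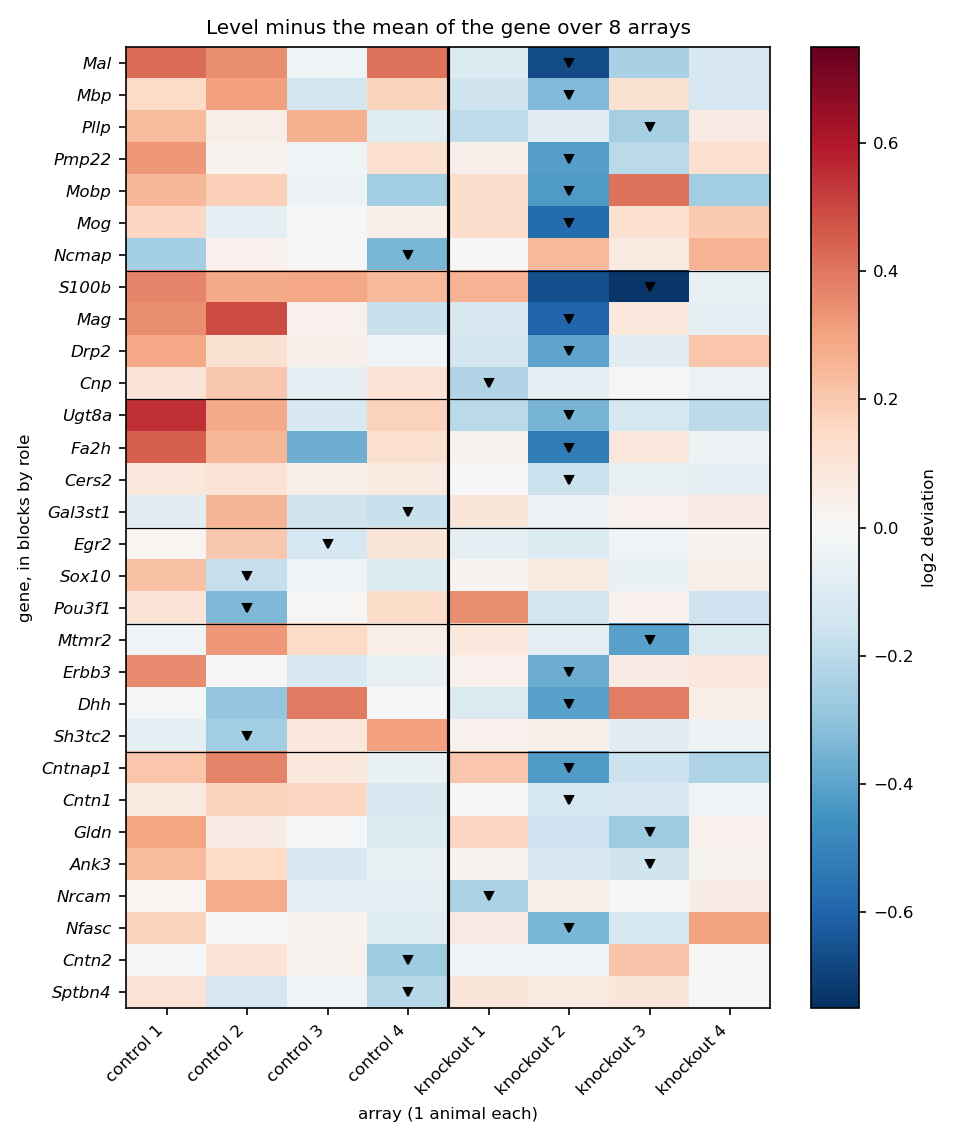
Deviation of each of the 30 genes (rows, in blocks by role) from its own mean over the 8 arrays (columns, 1 animal each), in log2 units from blue (lower) to red (higher), with a triangle at the lowest array of each gene. The column of knockout 2 holds 15 of the 30 triangles, and the columns of control 1 and 2 are mostly red.

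Further myelin genes that are not among the 30 had 12 negative differences of 15 measured, with a median of -0.16, and 0 passed. At an unadjusted p under 0.05, 4 of the 15 read lower, against 7.25% of all features, and 1 read higher, against 7.04%. The median level of the 15 was 6.28, and 1327 of the 7247 features at a level of at least 6 read lower at that p. After cyclic loess 10 of the 15 were negative, with a median of -0.061, against -0.063 over those brighter features. Dusp15, a phosphatase expressed in myelinating cells, was at -0.32, the fatty acid binding protein gene Pmp2 at -0.44, the connexin gene Gjb1 of myelin channels at 0.27 and the phosphoinositide phosphatase gene Fig4 at -0.35. The 7 measured markers of Schwann cells and myelin, all of them among the 30, had a mean level of 5.59 to 5.88 in knockout and 5.81 to 6.03 in control arrays.

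Genes of cholesterol synthesis, the pathway that supplies the main sterol of myelin and of all other membranes, had 12 negative differences of 14 measured, with a median of -0.18. None passed, and 6 were lower at an unadjusted p under 0.05, against 7.25% of all features. The same number had separate groups, all lower in knockout cochlea. That was 42.9% of 14, against 2.65% of all features lower and 5.96% in either direction. The median level of the 14 was 6.06. Of the 7247 features at a level of at least 6, 1327 were lower at an unadjusted p under 0.05, and 401 were separate and lower. Hmgcs1, an early enzyme of the pathway, read 6.46, 6.63, 6.501 and 6.51 in control and 6.21, 6.19, 5.93 and 6.02 in knockout animals. Every knockout value lay well below every control value, and the difference was -0.44 (SE 0.11; limma adjusted p = 0.286), with -0.38 after cyclic loess. Sc5d, a late enzyme, was at -0.31, Fdps, which makes farnesyl diphosphate, at -0.28, and Srebf2, the transcription factor of the pathway, at -0.25. These were at -0.18, -0.31 and -0.14 after cyclic loess. After cyclic loess 3 of the 14 were at an unadjusted p under 0.05, against 10.1% of all features.

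Axonal partners and channels of the node region had 12 negative differences of 14, with a median of -0.13 and 0 passed. The potassium channel gene Kcna1, whose product lies next to the paranode, was at -0.34, the spectrin genes Sptbn1 and Sptan1 at -0.37 and -0.30, and the paranodal scaffold gene Epb41l3 at -0.39. Genes of immature and repair Schwann cells were divided, with 6 negative differences of 12 and a median of -0.00097. L1cam was at -0.29, Ncam1 at -0.28, Ngfr at -0.19 and Gap43 at 0.20. After cyclic loess 9 of these 12 were negative, with a median of -0.11.

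Marker lists of other cells in the dissection were set beside these values. Spiral ganglion neuron markers had 12 negative differences of 14, with a median of -0.24, and 1 of them passed. Snap25, of the synaptic vesicle fusion machinery, read 8.32, 8.51, 8.06 and 8.18 in control and 7.16, 6.82, 7.57 and 7.16 in knockout animals, and it fell by 1.09 (SE 0.15; limma adjusted p = 0.0389). It kept an adjusted p under 0.05 when knockout replicate 3 or control replicate 3 was left out. When any 1 of the other 6 arrays was left out it did not, with limma adjusted p from 0.0590 to 0.183, nor did it after cyclic loess (limma adjusted p = 0.171). The neurofilament genes Nefl and Nefm were at -0.91 and -0.73, and Uchl1, a ubiquitin hydrolase abundant in neurons, was at -0.55. The mean level of the neuron markers was 5.61 to 5.96 in knockout and 5.97 to 6.35 in control arrays, with knockout 2 lowest and control 1 and 2 highest, the same arrays as for the mean of the 30 genes. Whether neuron content contributed to the myelin gene values was not tested.

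Satellite glial markers had 4 negative differences of 5, with a median of -0.20: Slc1a3 was at -0.29, Glul at -0.21, Fbln5 at -0.18 and Fabp7 at -0.20. The median was -0.077 after cyclic loess, with Slc1a3 at -0.39, Glul at -0.069, Fbln5 at -0.077 and Fabp7 at -0.13. The mean level of these markers was 6.46 to 6.61 in knockout and 6.59 to 6.88 in control arrays. Oligodendrocyte genes, which include Mobp and Mog, had a median of -0.022 over 10 genes, and their mean level was 5.18 to 5.51 in knockout and 5.27 to 5.52 in control arrays. Cldn11 was at -0.21, Myrf at 0.15, Nkx6-2 at 0.12 and Opalin at 0.070, and Opalin turned to -0.053 after cyclic loess. Melanocyte markers, of a cell type that shares Sox10, had a median of -0.077 over 6 genes and a mean level of 5.31 to 5.59 in knockout and 5.46 to 5.49 in control arrays. Dct was at -0.27, Pmel at 0.21, Mlana at -0.16 and Kit at -0.12. Fibroblast markers of the nerve sheath had a median of -0.093 over 7 genes and a mean level of 5.55 to 5.81 against 5.63 to 5.79, with Sfrp5 at -0.27, Itga4 at -0.22, Ly6c1 at 0.21 and Slc2a1 at -0.099, or 0.055 after cyclic loess.

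Skeletal muscle, which can adhere to the dissected capsule, varied most. Its markers had 13 negative differences of 14, with a median of -0.73, and a mean level of 5.63 to 6.84 in knockout and 6.64 to 8.48 in control arrays. Actn3 was at -0.90, Pvalb at -0.96, Myh4 at -1.67 and Mylpf at -1.30. Knockout 1, not knockout 2, had the lowest muscle level. With the muscle level as a covariate 23 of the 24 negative differences among the 30 genes kept their sign, Nrcam turned positive, and Sox10 and Pou3f1 turned negative. In that fit Mal was at -0.64, S100b at -0.74, Ugt8a at -0.46 and Ncmap at 0.42, and 0 passed.

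**Figure D5:**
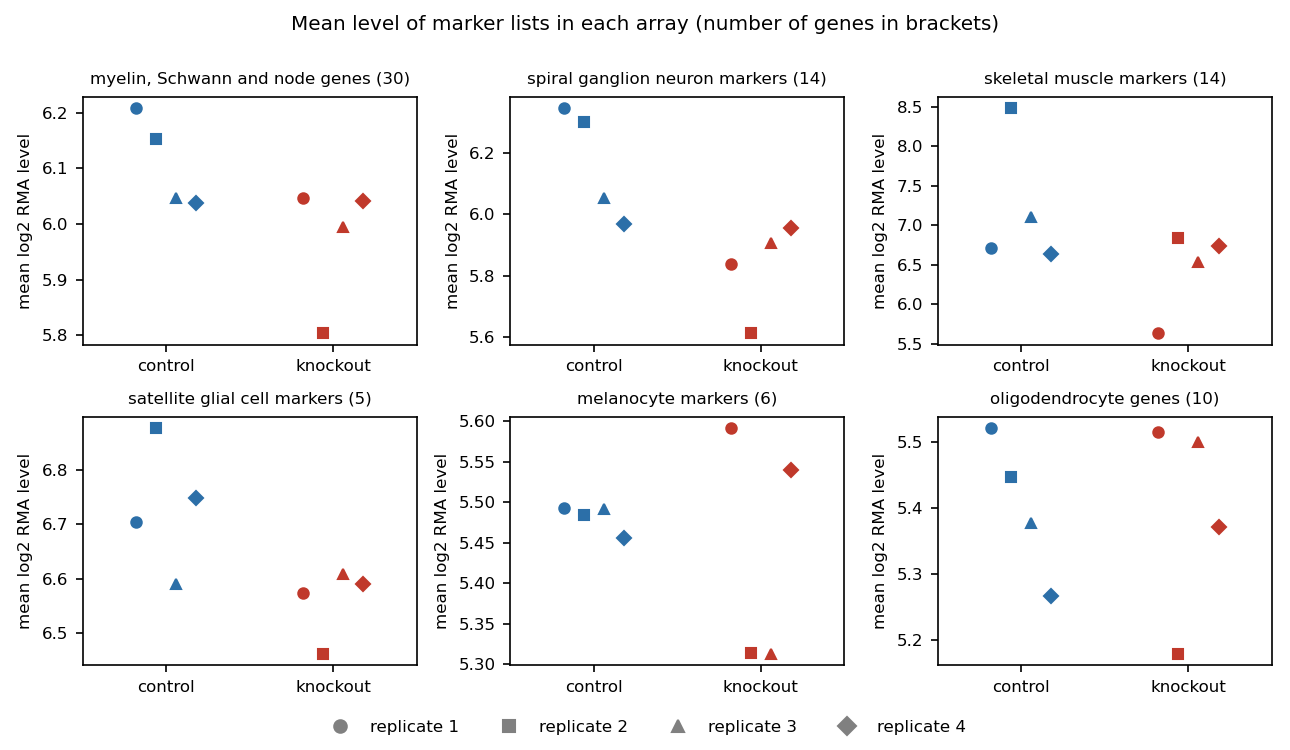
Mean log2 RMA level of the 30 genes and of 5 marker lists in each of the 4 control and 4 knockout animals, with the replicate number as symbol and a separate vertical range in each panel. Knockout 2 is lowest in the panels of the 30 genes (5.80), neuron markers (5.61), satellite glial markers (6.46) and oligodendrocyte genes (5.18). In that of melanocyte markers knockout 2 and knockout 3 are level at 5.31, and in that of muscle knockout 1 is lowest (5.63).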

How the data were processed

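The deposited values are log2 expression levels that the authors made with gene-level RMA in Affymetrix Expression Console on Affymetrix mouse gene-level arrays, per the submitters' processing notes and the labels. Neither names a software version. That the scale is log2 follows from the range of the values. Without detection calls, dim features may lie at background. Precision is set by having 8 arrays. Of 41345 features, 23521 had 1 symbol and were tested, 1814 had several and 16010 none.

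The groups were fitted with limma 3.58.1 (R 4.3.3), using an intensity trend, genotype as the only term and Benjamini-Hochberg adjustment over all tested features. The steps were tested on simulated data. The limma p-values set each difference against the spread between the 4 animals of a group. That spread was moderated toward the intensity trend over all tested features. The members and lists were chosen with earlier results of these data known, so no list was tested as a set. The naming rule gave values per array for genes at an unadjusted p under 0.05 or with separate groups, for Mbp, Mal and Mag and for 1 gene of each role, and up to 4 genes of each further list by smallest p. The alternatives were a replicate block, other variance models, all features, a mean filter of 5, median-centring, quantile and cyclic loess normalization, array weights, 2 covariates (signal range and muscle level), a threshold of 0.1 and leaving out each array.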

Additional observations from a re-analysis of the deposited data

Results flagged for a closer look

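Within groups of 4 animals, 1 array lay far from the other 3 by Dixon's criterion in 5 of 82 groups examined (60 for the 30 genes and 22 for marker lists). Chance gives about 1 in 20. Mal in control 3 read 6.515, against 6.90 to 6.97 in the other controls. Mog read 5.002 and Erbb3 5.39 in knockout 2, against 5.70 to 5.77 and 5.79 to 5.85 in the other knockout animals. Cntn2 read 5.91 in knockout 3, against 5.67 to 5.69. The mean level of the immature and repair Schwann cell genes was 5.10 in control 1, against 5.03 to 5.04 in the other controls.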

How the results depend on the processing

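None of the 30 genes passed under any of the 19 alternatives or at an adjusted threshold of 0.1, and their median ranged from -0.15 to -0.089 when each array was left out. It was -0.20 after median-centring and -0.19 with the signal range covariate, against -0.069 and -0.0039 over all features. Genes at an unadjusted p under 0.05 numbered 3 to 6 without each array, against 8.09% to 23.4% of all features, and 9 after median-centring, against 14.9%. Features that passed numbered 1 with all features of the table, with the signal range covariate and with the muscle covariate, 8 with array weights and 7 at the threshold of 0.1, and 1 to 21 without each array. Of the 30 genes, 16 kept their sign throughout. Median-centring moved every difference by -0.083, which by construction put below 0 the small positive differences of Sox10 (-0.042), Cntn2 (-0.0058), Gal3st1 (-0.012) and Pou3f1 (-0.040). Signs turned after repeated quantile normalization for Sox10 (-0.0064) and Pou3f1 (-0.057), and after cyclic loess for Sptbn4 (-0.0078) and Pou3f1 (-0.068). They turned with array weights for Dhh (0.062) and Sh3tc2 (0.0066), with the signal range covariate for Sox10 (-0.013), Egr2 (0.022), Cntn2 (-0.051) and Sh3tc2 (0.047), with the muscle covariate for Sox10 (-0.022), Nrcam (0.083) and Pou3f1 (-0.20), and for the second Cers2 feature (0.036). Without each array the ranges were -0.066 to 0.10 for Pou3f1, -0.22 to 0.058 for Mobp, -0.14 to 0.12 for Mog, -0.16 to 0.051 for Nfasc, -0.15 to 0.011 for Erbb3, -0.18 to 0.085 for Dhh, -0.0088 to 0.12 for Sox10, -0.11 to 0.0051 for Nrcam and -0.12 to 0.073 for Sh3tc2. Mir96 did not pass with all features of the table (limma adjusted p = 0.184) or with the muscle covariate (0.0596), and Snap25 had limma adjusted p-values from 0.0126 to 0.523 over all alternatives. The cause of these shifts was not tested.

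Replicate numbers are shared by both groups, and the deviations of same-numbered animals had correlations from -0.29 to 0.21. The labels do not say whether the numbers pair animals, and so few correlations cannot settle it. With the replicate number as a block, 3 features and 0 of the 30 genes passed. Snap25 did not pass with the block (limma adjusted p = 0.240).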
